A study of Mus musculus with 9 samples.

Results

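The 9 genes described here encode components of the complement system, the secreted protein cascade of innate immunity: mannose-binding lectin (Mbl2), the 3 chains of C1q (C1qa, C1qb and C1qc), C2, C4b, C3, factor B (Cfb) and factor I (Cfi). They were 9 of the 31685 genes listed in the jejunal transcriptome of 9 mice, and they were chosen by name with their levels in these same 9 libraries already known. Their levels and differences between groups are therefore given as a description, with no test. All 9 were among the 13056 genes that reached 1 FPKM (fragments scaled to gene length and to the reads of the library) in at least 3 mice. Mbl2 and Cfi did so only through irradiated mice, and 7 would have passed in the control mice alone.

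All mice were wild-type C57BL/6J, male and 6 to 8 weeks old, and jejunum was taken on day 3. The control group (n = 3) was untreated. The TAI group (n = 3) received a single dose of 12 Gy of X-rays to the abdomen, with the rest of the body shielded. The methods add that irradiated mice without IVIg were given PBS. The TAI/IVIg group (n = 3) received the same irradiation and 500 mg/kg of intravenous immunoglobulin (IVIg), a human IgG preparation pooled from plasma donors, injected within 1 hour and repeated every 3 days. The untreated mice received no PBS, and there was no group given IVIg without irradiation, so an effect of IVIg alone could not be examined. The comparison of TAI with control addressed what irradiation did to these transcripts, and that of TAI/IVIg with TAI whether IVIg given afterwards moved them.

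Complement is started by recognition proteins. C1q binds antibody complexes and dying cells, mannose-binding lectin binds sugars on microbes, and each activates serine proteases that cleave C4 and C2 into a convertase. The convertase cleaves C3, whose fragments tag surfaces for uptake and recruit leukocytes, while factor B forms the convertase of the alternative pathway and factor I degrades the active fragments. Most circulating complement is made by the liver, but in the gut C1q is made mainly by macrophages, and epithelial and stromal cells make C3 and factor B.

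Promoters of recognition genes are shown because Mbl2 had the widest range of all members and the C1q chains kept similar proportions. RefSeq windows of 300 bases (GRCm38.p6, 250 bases before to 50 after the annotated start) were at hand for 4 of the 9 members, namely Mbl2, C1qb, C1qc and C3. The Mbl2 window lies at chr19:30232678-30232977 (plus strand), that of C1qb at chr4:136886151-136886450 (minus strand) and that of C1qc at chr4:136892865-136893164 (minus strand). Each is written 5′ to 3′ on its gene's strand, with capitals for a match to GAGGAA, or its reverse complement TTCCTC, the core bound by PU.1, a transcription factor of myeloid cells.
Mbl2: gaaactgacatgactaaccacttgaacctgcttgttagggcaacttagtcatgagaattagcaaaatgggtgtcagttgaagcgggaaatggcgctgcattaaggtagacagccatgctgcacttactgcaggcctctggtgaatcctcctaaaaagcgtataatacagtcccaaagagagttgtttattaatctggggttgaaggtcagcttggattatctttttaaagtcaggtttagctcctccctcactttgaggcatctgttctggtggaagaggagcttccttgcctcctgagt
C1qb: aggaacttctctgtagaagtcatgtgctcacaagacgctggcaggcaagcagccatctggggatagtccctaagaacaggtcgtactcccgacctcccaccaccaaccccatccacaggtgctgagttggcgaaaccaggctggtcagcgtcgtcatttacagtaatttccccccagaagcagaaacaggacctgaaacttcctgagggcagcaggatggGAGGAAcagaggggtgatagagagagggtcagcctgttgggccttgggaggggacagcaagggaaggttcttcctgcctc
C1qc: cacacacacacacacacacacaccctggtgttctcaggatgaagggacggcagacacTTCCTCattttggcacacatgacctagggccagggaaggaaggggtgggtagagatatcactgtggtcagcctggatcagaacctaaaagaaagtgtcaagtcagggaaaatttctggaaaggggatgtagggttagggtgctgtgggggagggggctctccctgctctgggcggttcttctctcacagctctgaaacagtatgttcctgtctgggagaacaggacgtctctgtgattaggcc
The match stood at bases -30 to -25 from the start in C1qb and at -193 to -188, on the opposite strand, in C1qc. Of 32851 mouse promoter windows of this length, 28.3% held it on either strand, so a match is common. The Mbl2 window held none of the 5 motifs searched on both strands, of which GAGGAA was 1. The STAT motif TTCNNNGAA was in 8.30% of the windows. The motif TTGCNNAA of the factors Cebpb and Cebpd was in 10.8%, the HNF1 motif GTTAAT in 7.10% and the TATA box motif TATAAA in 13.6%. The C3 window held the match TTGCGAAA to the Cebpb and Cebpd motif at -45 to -38 and a TATA box match downstream of the RefSeq start, at 15 to 20. A match is a description of these letters and not evidence of binding.

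In GRCm38 the C1q genes stand next to each other on the minus strand of chromosome 4, C1qb at 136880129-136886187, C1qc at 136889804-136893065 and C1qa at 136895917-136898803. C4b (34728380-34743882), Cfb (34856374-34862518) and C2 (34862604-34898265) are neighbours on the minus strand of chromosome 17, which also carries C3 (57203970-57228136, minus strand). Mbl2 lies on chromosome 19 (30232942-30239687, plus strand) and Cfi on chromosome 3 (129835884-129875332, plus strand). All 9 are protein-coding genes, and FPKM counts reads over the union of their exons. The gene model Gm20547 shares 79.5% of the exon bases of Cfb. C2 shares exon bases with Gm20547 and with Zbtb12 on the opposite strand. The larger of these overlaps covers 42.8% of the C2 exon bases. Gm20547 had 0 entries in the table, so how reads there were assigned is not known. Of the 50-base windows of C4b transcripts, 34.6% also occur in its copy C4a, which was listed at 0.121 to 0.353 FPKM, so C4b levels are uncertain to that extent.

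The 9 libraries held 16282134 to 18241967 reads, and all came from the same batch according to the labels. The tissue is labelled jejunal epithelium, and 7 epithelial markers summed to 6057 to 9127 FPKM, but markers of other cells were also present, so the libraries were of mixed tissue. A library in each group stood apart by B cell and follicular dendritic cell transcripts, a list drawn up after its genes were seen to vary. Those 7 markers summed to 451 FPKM in control mouse 3 against 74.3 and 16.5 in the other control mice. They summed to 251 in TAI mouse 3 against 18.6 and 24.2, and to 255 in TAI/IVIg mouse 2 against 10.9 and 3.75. Some results, among them those of C3 and C4b, are also given without these libraries. Differences of mean log2(FPKM + 1) had a median over all tested genes of -0.23 for TAI against control, -0.39 for TAI/IVIg against control and -0.13 for TAI/IVIg against TAI. With the library medians set equal these shifts became 0.05, 0.10 and 0.08, and differences near the shift depend on the scaling.

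Irradiated jejunum differed from control most in Mbl2 and in C2. The Mbl2 mean went from near the detection limit to the 92.9th percentile of tested genes in TAI and the 97.6th in TAI/IVIg. The C2 mean was at 0.304 of its control mean in TAI and at 0.252 in TAI/IVIg. Cfb was higher by 2.11-fold in TAI and 1.62-fold in TAI/IVIg, the C1q chains were close to control in TAI, and C3 and C4b varied so much between mice that their groups overlapped.

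**Figure D1:**
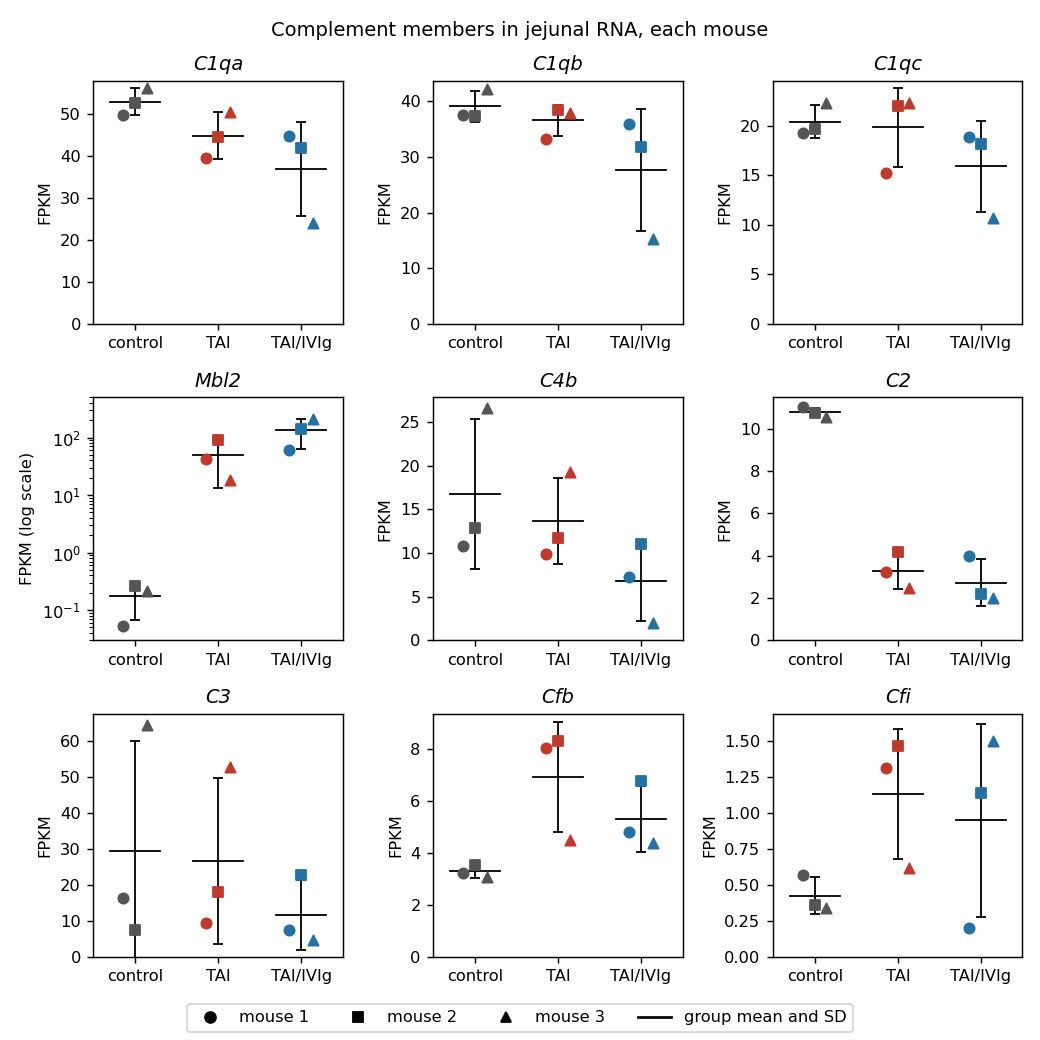
Level of each of the 9 genes in FPKM (y axis, logarithmic for Mbl2, linear from 0 for the others) in control, TAI and TAI/IVIg jejunum, with a marker per mouse and bars for the group mean and SD (n = 3, cut at 0 for C3). Mbl2 and Cfb were above, and C2 below, all control mice in each of the 6 irradiated mice.

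Read as counts, 2 members were past the threshold of an adjusted p of 0.05 as higher in TAI than in control (Mbl2 and Cfb), where 8.81% of all tested genes were, and 1 as lower (C2), where 26.1% of all genes were. The TAI and control mice did not overlap for 4 members (Mbl2, C2, Cfb and Cfi), beside 53.0% of all genes. Between TAI/IVIg and TAI, 0 members and 0.0% of all genes passed in either direction, and 0 members did not overlap, beside 19.1% of all genes. Over all tested genes that last comparison gave 1680 genes (12.9%) at an unadjusted p under 0.05 in limma, and 0 genes past the adjusted threshold in limma voom on the reads. Between TAI/IVIg and control, Mbl2 was past the threshold as higher, beside 9.06% of all genes, and C2 as lower, beside 37.4%. The TAI/IVIg and control mice did not overlap for 6 members (Mbl2, C2, Cfb and the 3 C1q chains), beside 55.8% of all genes. Because the members were chosen with these values known, nothing is read from the counts. The comparisons share samples, the control mice in one pair and the TAI mice in another, so their values are set side by side and not compared as independent results.

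**Figure D2:**
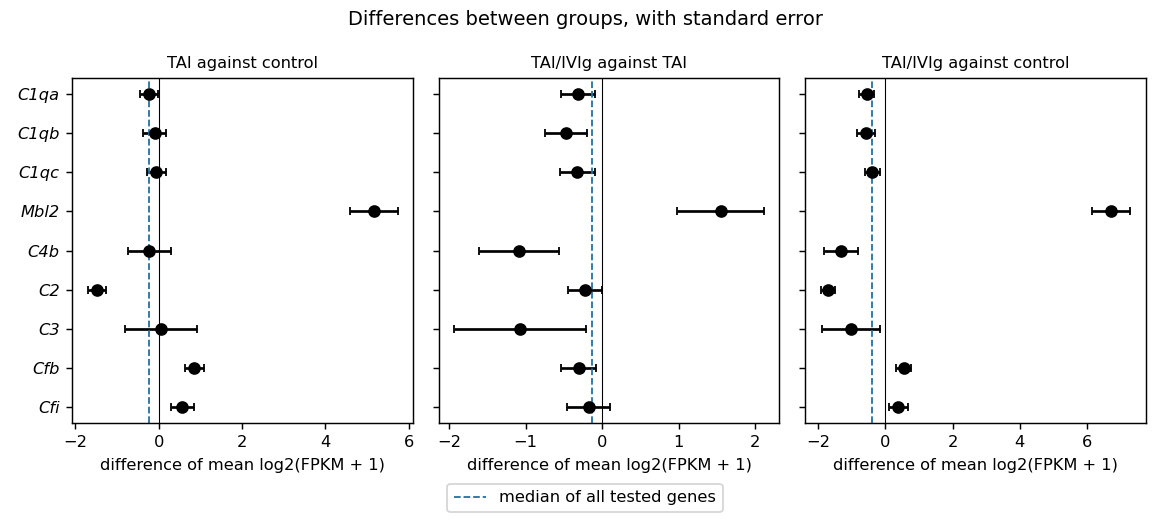
Difference of mean log2(FPKM + 1) (x axis) for the 9 genes (y axis) in the 3 comparisons, with bars for the standard error of the limma fit and a dashed line for the median of all tested genes. Mbl2 lay far to the right of the other members in each panel, and C2 lay left of the dashed line in the 2 comparisons against control.

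Mbl2, the secreted lectin that starts the lectin pathway, was at 0.0528, 0.260 and 0.212 FPKM in the control mice, which rested on 1, 5 and 4 reads. In the TAI mice it was at 41.6, 89.5 and 18.3 FPKM, and in the TAI/IVIg mice at 60.7, 143 and 209 FPKM. Every irradiated mouse was above every control mouse, and the TAI/IVIg mice reached higher than the TAI mice, although the lowest TAI/IVIg mouse was below the highest TAI mouse. The group means were 0.175 ± 0.108 for control mice, 49.8 ± 36.3 for TAI mice and 138 ± 74.3 for TAI/IVIg mice (SD, n = 3). Per library read, Mbl2 was 276-fold higher in TAI than in control (95% counting interval 150 to 577, from 2727 reads against 10). The same ratio for TAI/IVIg was 775-fold (421 to 1616, from 7654 reads against 10), and these exact intervals cover counting error only, not the spread between mice. Its level ranked at the 0.299th percentile of tested genes in control mice, the 92.9th after TAI and the 97.6th after TAI/IVIg.

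On the log2(FPKM + 1) scale, which understates the change of a gene near 0, the Mbl2 difference was 5.17 (SE 0.57) for TAI against control and 6.72 (SE 0.57) for TAI/IVIg against control. Limma voom on the recovered reads gave 7.84 and 9.44. Between TAI/IVIg and TAI the mean FPKM was 2.76-fold higher, a difference of 1.55 (SE 0.57) with overlapping mice, and this value depended on which mice were used. It was 2.10 when TAI mouse 2 was left out, 0.99 when TAI mouse 3 was, and 1.16 when TAI/IVIg mouse 3 was. It was 0.87 without the 3 libraries rich in follicle transcripts. Mbl1, the other mouse mannose-binding lectin, was listed at 0 in 7 mice and at no more than 0.0375 FPKM in the others, so the mannose-binding lectin transcript of irradiated jejunum was Mbl2.

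Mbl2 is known as a product of hepatocytes, so 8 hepatocyte markers were examined beside it. Of these markers, Ttr, Apoa2 and Cps1 are also made by intestinal epithelium. Albumin (Alb) was at 5.92 to 7.45 FPKM in the control mice, 5.92 to 9.30 in the TAI mice and 6.55 to 7.24 in the TAI/IVIg mice. Serpina1c, Fgb and Ahsg, which encode other liver plasma proteins, were below 1 FPKM in all 9 mice, though none was at 0. The whole list summed to 48.3 to 108 FPKM in the control mice, 32.2 to 111 after TAI and 16.8 to 35.6 after TAI/IVIg. Cps1 and Cyp2e1 made up most of the sum in control and TAI, but not in TAI/IVIg mice 1 and 3. Their part in the Mbl2 level was not tested. The 7 epithelial markers summed to 6057 to 7840 FPKM in control, 7118 to 7877 in TAI and 6917 to 9127 in TAI/IVIg. In TAI against control 0 were higher, 2 were lower and 5 were not called, beside 8.81% higher and 26.1% lower of all genes. In TAI/IVIg against control 2 were higher, 1 was lower and 4 were not called, beside 9.06% higher and 37.4% lower. Epcam and Krt20 were higher (limma, log2 differences 0.59 and 0.81, adjusted p 0.040 and 0.028) and Krt8 was lower (-0.61, adjusted p 0.014). The part of the epithelium was not tested either.

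The C1q chains form a single protein in equal numbers. C1qa was at 49.7, 52.5 and 56.2 FPKM in the control mice, 39.4, 44.5 and 50.4 in the TAI mice, and 44.8, 41.9 and 24.0 in the TAI/IVIg mice. C1qb was at 37.6, 37.4 and 42.3 FPKM in control, 33.3, 38.5 and 37.9 in TAI, and 36.0, 31.9 and 15.2 in TAI/IVIg. C1qc was at 19.3, 19.8 and 22.3 FPKM in control, 15.2, 22.0 and 22.3 in TAI, and 18.9, 18.2 and 10.7 in TAI/IVIg. In all 3 chains the TAI mice overlapped the control mice, all TAI/IVIg mice were below all control mice, and TAI/IVIg mouse 3 was the lowest of the 9. The differences of TAI from control were -0.24 (SE 0.22) for C1qa, -0.09 (SE 0.27) for C1qb and -0.06 (SE 0.23) for C1qc on the log2(FPKM + 1) scale, and all 3 turned positive with library medians set equal (0.05, 0.19 and 0.23).

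For TAI/IVIg against control they were -0.55, -0.57 and -0.38. These shrank to -0.28, -0.20 and -0.13 without TAI/IVIg mouse 3, and to -0.06, -0.08 and 0.11 with library medians set equal, so that C1qc changed sign. The chains kept nearly the same proportions in every mouse: of the summed C1q level, which ran from 49.8 to 121 FPKM, C1qa made up 42.4% to 48.1%, C1qb 30.5% to 37.9% and C1qc 17.3% to 21.4%. A ratio of the summed level to Csf1r, the receptor for the macrophage growth factor, ran from 10.7 to 17.6 over the 9 mice. In bulk tissue, fewer macrophages and less C1q RNA per macrophage cannot be told apart.

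The 8 macrophage markers did not move in a common direction. They summed to 42.1 to 52.4 FPKM in control, 65.2 to 74.8 in TAI and 56.2 to 78.2 in TAI/IVIg, and Mertk, a receptor for dying cells that other cell types can also express, made up most of the gain. Mertk rose in TAI (log2 difference 1.14, SE 0.21, adjusted p 0.0046 in limma), while Cd68, a lysosomal protein of phagocytes, fell (-0.95, SE 0.23, adjusted p 0.013). Of the 7 markers of this list that were tested, 1 was higher, 1 was lower and 5 were not called in each comparison against control. Of all genes 8.81% were higher and 26.1% lower in TAI, and 9.06% and 37.4% in TAI/IVIg. Markers of neutrophils and monocytes summed to 11.8 to 27.0 FPKM in control, 5.87 to 14.5 in TAI and 2.14 to 4.42 in TAI/IVIg, over 7 genes. Their part in the C1q levels was not tested.

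C2, the serine protease that joins C4b in the convertase of the classical and lectin pathways, was at 11.0, 10.7 and 10.6 FPKM in the control mice. It was at 3.21, 4.16 and 2.46 FPKM in the TAI mice and at 3.99, 2.17 and 1.99 in the TAI/IVIg mice. The control mice were nearly identical, with a mean of 10.8 ± 0.228, and each irradiated mouse was below all of them, while the irradiated groups overlapped (3.28 ± 0.848 and 2.72 ± 1.11, SD, n = 3). The differences on the log2(FPKM + 1) scale were -1.48 (SE 0.22) for TAI against control, -1.70 (SE 0.22) for TAI/IVIg against control and -0.22 (SE 0.22) for TAI/IVIg against TAI. With library medians set equal the first and second of these were -1.19 and -1.21, so most of the difference was not part of the shift of all genes. Its level ranked at the 66.9th percentile in control mice, the 40.4th after TAI and the 41.0th after TAI/IVIg.

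C4b, the other part of that convertase, was at 10.8, 12.8 and 26.6 FPKM in control, 9.92, 11.7 and 19.2 in TAI, and 7.29, 11.0 and 1.95 in TAI/IVIg. The 3 groups overlapped, with mouse 3 highest in control and in TAI and lowest in TAI/IVIg. Group means were 16.7 ± 8.58, 13.6 ± 4.93 and 6.75 ± 4.55 FPKM (SD, n = 3). The differences were -0.23 (SE 0.52) for TAI against control and -1.31 (SE 0.52) for TAI/IVIg against control, the latter -0.73 without TAI/IVIg mouse 3 and -0.82 with medians set equal.

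C3, the component on which all pathways converge, varied more between mice than between groups. It was at 16.4, 7.26 and 64.3 FPKM in control, 9.25, 18.0 and 52.8 in TAI, and 7.46, 22.8 and 4.59 in TAI/IVIg. The SD was 105% of the mean over control mice, 86.5% over TAI mice and 84.3% over TAI/IVIg mice, and the groups overlapped throughout. The difference of TAI from control was 0.05 (SE 0.86), and it turned with single mice: it was 0.87 without control mouse 3 and 0.60 without TAI mouse 1, but -0.62 without control mouse 2 and -0.60 without TAI mouse 3. The difference for TAI/IVIg against control was -1.02 (SE 0.86), and it was -0.20 without control mouse 3, -0.57 without TAI/IVIg mouse 3 and -1.69 without control mouse 2.

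The highest C3 and C4b level of each group lay in the library richest in Cr2, the complement receptor of B cells and follicular dendritic cells that binds C3 fragments. Cr2 was at 12.7 FPKM in control mouse 3, 3.08 in TAI mouse 3 and 4.81 in TAI/IVIg mouse 2, and at 1.52 or less in the other 6 mice. All 7 markers of B cells and follicular dendritic cells were highest in that same mouse of each group. Cd79a, a chain of the B cell receptor complex, was at 142, 29.9 and 31.4 FPKM there and at 18.5 or less elsewhere. Clu, a soluble complement inhibitor that follicular dendritic cells also make, was at 113, 86.3 and 74.5 FPKM there and at 16.5 or less elsewhere. The 3 C1q chains were highest in that library in control, and C1qa and C1qc in TAI, but none of them in TAI/IVIg. Mbl2, C2 and Cfi were highest in it in no group. Without the 3 libraries the C3 differences were 0.22 for TAI against control and -0.80 for TAI/IVIg against control, and those of C4b were -0.12 and -1.37. The part of lymphoid tissue in these levels was not tested.

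**Figure D3:**
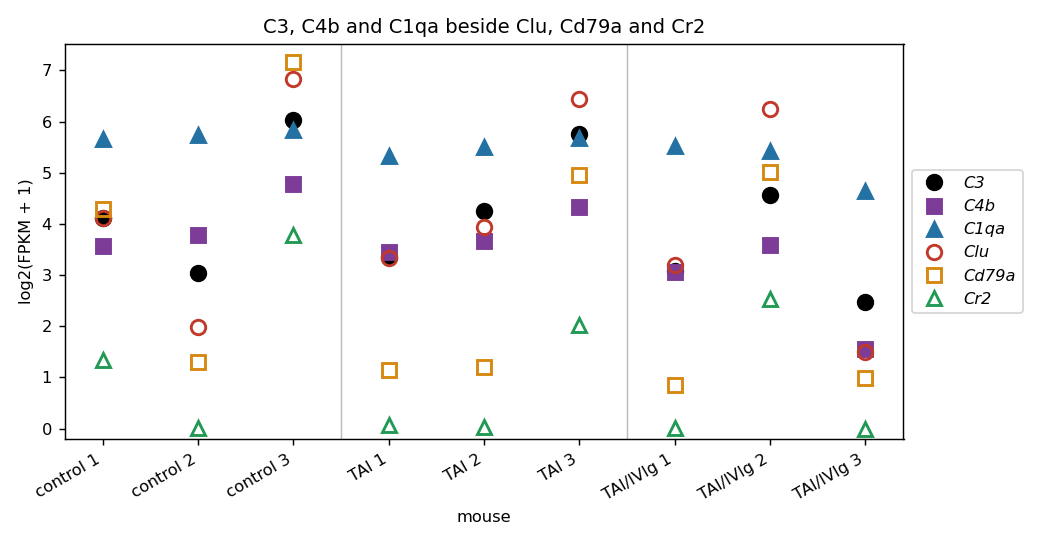
Level as log2(FPKM + 1) (y axis) of C3, C4b and C1qa (filled markers) and of Clu, Cd79a and Cr2 (open markers) in each of the 9 mice (x axis), with vertical lines between the groups. In each group the mouse with the most Cr2, Cd79a and Clu, control 3, TAI 3 and TAI/IVIg 2, was also the one with the most C3 and C4b.

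Factor B (Cfb), the protease of the alternative pathway convertase, was at 3.22, 3.55 and 3.09 FPKM in the control mice, 8.04, 8.30 and 4.48 in the TAI mice, and 4.80, 6.77 and 4.39 in the TAI/IVIg mice. All 6 irradiated mice were above all control mice, and the irradiated groups overlapped. The means were 3.28 ± 0.236, 6.94 ± 2.13 and 5.32 ± 1.27 FPKM (SD, n = 3). The differences were 0.85 (SE 0.23) for TAI and 0.54 (SE 0.23) for TAI/IVIg against control, and 1.14 and 1.04 with library medians set equal. C2 and Cfb, which lie next to each other on chromosome 17, thus differed from control in opposite directions. Per length, C2 was more abundant than Cfb in all 3 control mice and Cfb more abundant than C2 in all 6 irradiated mice. Gm20547 shares 79.5% of the exon bases of Cfb and at most 42.8% of those of C2. How reads there were assigned is not known, so the order of these genes within a mouse is uncertain.

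Factor I (Cfi), the protease that inactivates C3b and C4b, was low in all groups, at 0.570, 0.357 and 0.338 FPKM in control, 1.31, 1.47 and 0.617 in TAI, and 0.200, 1.14 and 1.50 in TAI/IVIg. The TAI mice were above the control mice, whereas TAI/IVIg mouse 1 was the lowest of all 9. These values rested on 13 to 22 reads in control, 25 to 53 in TAI and 8 to 56 in TAI/IVIg. Per library read the ratio to control was 2.65 in TAI (95% counting interval 1.89 to 3.76) and 2.21 in TAI/IVIg (1.56 to 3.17), and the spread between TAI/IVIg mice was larger than the second difference. On the log2(FPKM + 1) scale the differences were 0.57 and 0.39 (SE 0.28).

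Ordered by mean level per length, control jejunum held most C1qa (52.8 FPKM), then C1qb (39.1), C3 (29.3), C1qc (20.5), C4b (16.7), C2 (10.8), Cfb (3.28), Cfi (0.422) and Mbl2 (0.175). The mice of neighbouring genes in this order did not overlap between C1qa and C1qb, C2 and Cfb, Cfb and Cfi, or Cfi and Mbl2, whereas C3 overlapped its neighbours, as did C4b. In TAI the order was Mbl2 (49.8), C1qa (44.8), C1qb (36.6), C3 (26.7), C1qc (19.9), C4b (13.6), Cfb (6.94), C2 (3.28) and Cfi (1.13). The Mbl2 levels of the TAI mice, 18.3 to 89.5 FPKM, overlapped those of the C1q chains, C3 and C4b. In TAI/IVIg every mouse had more Mbl2 than any of the other 8 genes. The places of C2 and Cfb in these orders are uncertain, because both share exon bases with Gm20547 to different extents. The median difference of the 9 members was -0.06 for TAI against control, -0.32 for TAI/IVIg against TAI and -0.55 for TAI/IVIg against control. Those of all tested genes were -0.23, -0.13 and -0.39. The TAI/IVIg mean was below the TAI mean for 8 of the 9 members. With library medians set equal the member medians were 0.23, -0.11 and -0.06, beside 0.05, 0.08 and 0.10 for all genes. TAI/IVIg mouse 3 was the lowest of its group for 7 members. Without it the member medians were -0.10 for TAI/IVIg against TAI and -0.20 against control, beside -0.09 and -0.34 for all genes.

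Other genes of the complement system were examined from a list of 44, of which 43 were in the table and 21 were tested. Against control, TAI jejunum had 1 of them higher and 2 lower by limma (adjusted p under 0.05 over all tested genes), and 18 were not called. Of all tested genes 8.81% were called higher and 26.1% lower. C7, a component of the membrane attack complex, rose by 0.62 on the log2(FPKM + 1) scale (SE 0.20, adjusted p 0.038), from 1.12 ± 0.479 to 2.20 ± 0.273 FPKM (SD, n = 3). C1qbp, a mainly mitochondrial protein named for binding C1q, fell by 1.92 (SE 0.36, adjusted p 0.0050), from 28.5 ± 10.4 to 6.54 ± 1.58 FPKM. Itgax, the alpha chain of the C3 fragment receptor CR4 on dendritic cells, fell by 0.76 (SE 0.24, adjusted p 0.036). The median over the 21 genes was 0.18, beside -0.23 over all genes, with 13 positive and 8 negative.

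Without the 3 libraries rich in follicle transcripts 1 of these 21 genes was called in TAI against control, and leaving out control mouse 3, TAI mouse 1 or TAI mouse 3 also gave 1. C1qbp was past the threshold under each alternative run, whereas C7 and Itgax were each lost under several, with adjusted p of up to 0.17 and 0.12. The C1 proteases that are activated by C1q binding did not pass, C1ra with a difference of -0.37 (SE 0.27, adjusted p 0.32) and C1s1 with 0.03 (SE 0.27, adjusted p 0.94). The receptor C3ar1 for the anaphylatoxin C3a was at 0.01 (adjusted p 0.98).

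In TAI/IVIg against TAI 0 of the 21 genes passed the adjusted threshold in limma, and 0 in limma voom. In limma 8 of them had an unadjusted p under 0.05, all lower in TAI/IVIg, with adjusted p of 0.35 to 0.38. Of all tested genes 1466 were lower and 214 higher at that threshold. With library medians set equal 6 of the 21 passed it, all lower, beside 580 lower and 1005 higher of all genes. C1ra was at 9.03, 12.7 and 8.05 FPKM in the TAI mice and 6.79, 5.33 and 2.82 in the TAI/IVIg mice (difference -0.91, SE 0.27, adjusted p 0.35). C1s1 was at 13.9, 18.8 and 16.6 FPKM in TAI and 10.6, 11.5 and 5.66 in TAI/IVIg (-0.81, SE 0.27, adjusted p 0.35). For both of these genes the groups did not overlap, although the differences failed the correction over all genes.

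Serping1, which encodes the C1 inhibitor and was named here after its values were seen, was at 37.5, 47.0 and 29.7 FPKM in TAI and 25.7, 18.4 and 9.33 in TAI/IVIg (-1.13, SE 0.32, adjusted p 0.35). Of the 21 differences 18 were negative and 3 positive, with a median of -0.53 against -0.13 for all genes. The median was -0.32 with library medians set equal and -0.16 without TAI/IVIg mouse 3. In the latter run 5 genes had an unadjusted p under 0.05, beside 4.89% of all genes. The median was -0.88 in limma voom with total library sizes and -0.60 with library sizes set by median ratios. Without the 3 libraries rich in follicle transcripts it was -0.75, beside -0.19 for all genes, and 20 of 20 tested genes were negative. Fibroblast markers were also lower in the TAI/IVIg mice. The 6 genes summed to 69.8 to 82.2 FPKM in TAI and 19.0 to 49.4 in TAI/IVIg, beside 53.1 to 72.0 in control. The TAI/IVIg mean was below the TAI mean for all 6, for 5 with an unadjusted p under 0.05 and an adjusted p of 0.35 to 0.36. Their part in the lower complement transcripts was not tested.

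In TAI/IVIg against control 6 of the 21 genes were lower, 0 were higher and 15 were not called. Of all tested genes 37.4% were called lower and 9.06% higher. At an unadjusted p under 0.05 limma gave 9 of the 21, all lower, where 54.6% of all tested genes passed (5745 lower and 1385 higher). With library medians set equal it gave 5 of the 21 lower and 3 higher, beside 2376 lower and 3694 higher of all genes. Serping1 fell by 1.81 (SE 0.32, adjusted p 0.0025), from 60.8 ± 6.63 to 17.8 ± 8.22 FPKM. C1ra fell by 1.27 (SE 0.27, adjusted p 0.0060) and C1s1 by 0.78 (SE 0.27, adjusted p 0.039), the latter lost under 13 alternatives, among them library medians set equal. Itgax fell by 1.05 (SE 0.24, adjusted p 0.0075), Itgb2, the beta chain that it shares with other leukocyte integrins, fell by 1.32 (SE 0.37, adjusted p 0.019), and C1qbp fell by 2.83 (SE 0.36, adjusted p 0.00075). Both integrin chains were lost with library medians set equal.

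**Figure D4:**
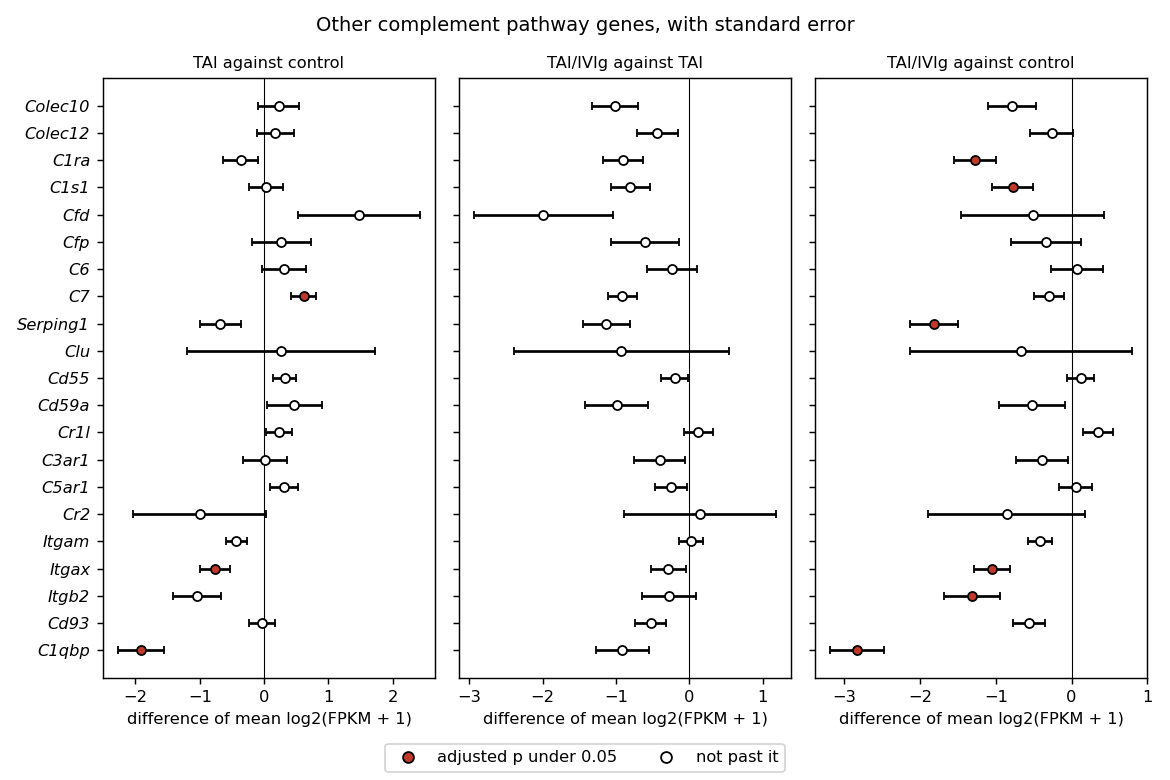
Difference of mean log2(FPKM + 1) (x axis) for the 21 tested genes of the complement system other than the 9 members (y axis) in the 3 comparisons, with bars for the standard error of the limma fit. Filled markers are past an adjusted p of 0.05, 3 for TAI against control, 0 for TAI/IVIg against TAI and 6 for TAI/IVIg against control.

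The 7 terminal pathway genes (Hc, C6, C7, C8a, C8b, C8g and C9) and the 7 listed lectin pathway genes contributed 2 tested genes each. Most genes of these lists thus did not reach the level tested. Masp1 and Masp2, the proteases that mannose-binding lectin activates, reached at most 0.532 and 0.171 FPKM in any mouse. Hc, the gene of C5, reached at most 0.0830 FPKM. Jejunum with much Mbl2 RNA thus held little RNA for the lectin proteases, and the proteins were not measured. Cfd, the protease that activates factor B, was at 309 FPKM in TAI mouse 3 and 5.17 to 55.6 in the other 8 mice. Adipoq, an adipocyte hormone, was at 58.8 FPKM in TAI mouse 3 and 0.820 to 11.6 in the others, and the 5 adipocyte markers summed to 41.6 to 63.9 FPKM in control, 61.8 to 179 in TAI and 61.2 to 82.1 in TAI/IVIg. Both genes were named after their values were seen, and the part of fat tissue was not tested.

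Cytokines, signal mediators and acute-phase genes that are known to accompany complement gene induction were listed as 16 genes, of which 13 were tested. Against control, 5 rose and 0 fell in TAI jejunum by limma, beside 8.81% higher and 26.1% lower of all tested genes. Socs3, a feedback inhibitor of cytokine signalling through STAT3, rose by 2.92 (SE 0.20, adjusted p 0.00015), from 12.9 ± 0.0858 to 107 ± 26.5 FPKM. Stat3 rose by 0.85 (SE 0.14, adjusted p 0.0035) and Cebpd, a transcription factor of the acute-phase response, by 1.14 (SE 0.25, adjusted p 0.0091). In TAI/IVIg against TAI 0 of the 13 passed in limma, 4 had an unadjusted p under 0.05 and all 4 were lower in TAI/IVIg. Of all tested genes 12.9% had such a p (1466 lower and 214 higher). In TAI/IVIg against control Socs3 (2.55), Stat3 (0.78) and Irf1 (0.80, an interferon-induced transcription factor) rose, with adjusted p of 0.00015, 0.0030 and 0.019. Lcn2, an antimicrobial iron-scavenging protein, fell by 0.81 (SE 0.24, adjusted p 0.022). Without the 3 libraries rich in follicle transcripts Irf1 and Lcn2 were no longer past the threshold (adjusted p 0.076 and 0.055).

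The tested genes whose log2(FPKM + 1) levels over the 9 mice were most like those of Mbl2 were Etl4 (Pearson r 0.992, Spearman rho 0.95), Slc46a1 (0.991 and 0.933) and Ano3 (0.990 and 0.933). Slc46a1, the intestinal folate transporter, was at 0.934, 0.900 and 0.938 FPKM in control, 15.9, 17.9 and 11.7 in TAI, and 21.6, 23.8 and 39.4 in TAI/IVIg. It therefore had the same order of groups as Mbl2 with less spread in control and TAI. For C3 the nearest genes were Serpinb6b (0.960 and 0.917), Sulf1 (0.955 and 1.00) and Vcam1 (0.954 and 0.95), and Vcam1 encodes an adhesion molecule of endothelial and stromal cells. For the mean of the C1q chains they were Ptn (0.958 and 0.800), Impact (0.956 and 0.883) and Oaz2 (0.946 and 0.933). The 9 points of each correlation share their libraries and fall into groups, so the values describe these mice and carry no test.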

How the data were processed

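Jejunal RNA of 9 mice was sequenced, and the table that the authors deposited gives the FPKM of each gene in each mouse, with no pooled values (0 columns were left out). The submitters' processing notes name FastQC, Trimmomatic, STAR, featureCounts and DESeq2 without versions or roles, and the builds mm10 and GRCm38. FPKM divides reads by gene length and library total, so a library's level depends on all its other RNA. The FPKM steps of all genes (100%, tolerance 0.001 reads) gave whole reads, and the implied gene length equalled the GENCODE M21 exon union for 97.4% of 31146 matched identifiers and for all 9 members.

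Genes of at least 1 FPKM in at least 3 mice were tested on log2(FPKM + 1) with limma 3.58.1 in R 4.3.3 (all mice, group terms, trended empirical Bayes, Benjamini-Hochberg adjustment over 13056 genes). The steps were tested on simulated data. Groups and mouse numbers came from the labels, which do not say what a shared number means. Deviations of same-numbered control and TAI mice correlated at 0.271, 0.241 and 0.308, those of TAI/IVIg mice with either group at -0.296 to 0.201. Mice of different numbers were not compared, so whether the numbers pair mice cannot be told from these values. The fit had no term for the mouse number, and a replicate block was run as an alternative.

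The members, gene lists and markers were chosen with earlier results of these data known, and the lists of B cell, follicular dendritic cell and adipocyte markers after seeing these values. Named were all members, up to 3 other pathway genes or inducers per role, direction and comparison past the adjusted threshold, the partners Mbl1, C4a, C1ra, C1s1 and C3ar1, and the 3 genes most like Mbl2, C3 and the mean of the C1q chains. Some genes of the lists are not reported here, and the counts leave them out. Read ratios have exact 95% intervals. Alternatives left out each mouse in turn, the filter or the trend, used the block, only the 6 mice compared, quantile normalization or equal library medians, took 0.1 as pseudocount or 5 as the lowest mean FPKM, or ran limma voom on the recovered reads.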

Additional observations from a re-analysis of the deposited data

How the results depend on the processing

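Over the alternatives run, the signs of the Mbl2, C2 and Cfb differences from control did not change. The count of other complement genes called in TAI against control, 3, was 5 in a fit of the 6 mice compared, 1 at a mean FPKM of at least 5, and 1 to 4 with each mouse left out. It was 1 without the 3 libraries with the most Cr2, an alternative chosen after seeing the data. Over all genes that comparison gave 4561 calls, 2343 (without TAI mouse 1) to 4902 with each mouse left out, 2614 without control mouse 2, 2761 without control mouse 3, and 1669 without those 3 libraries. TAI/IVIg against TAI gave 0 calls, but 4 with no filter and 3 with the replicate block. TAI/IVIg against control gave 6063 calls and 3381 at a mean FPKM of at least 5, which tests fewer genes. For the other moves the cause was not tested. The replicate block ended 1 further call, C1s1 in TAI/IVIg against control, and gave 4, 0 and 7 complement genes in the 3 comparisons.

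Signs turned for differences near 0. C3 in TAI against control (0.05) ran from -0.62 to 0.87 with each mouse left out. C4b there (-0.23) was 0.06 with medians set equal and 0.14 without control mouse 3. In TAI/IVIg against TAI, C2 (-0.22) was 0.02 with quantile normalization and Cfi (-0.17) was 0.14 without TAI/IVIg mouse 1. C1s1 in TAI against control (0.03) ran from -0.15 to 0.20 with each mouse left out (-0.15 without control mouse 1, -0.07 without TAI mouse 2). C3ar1 in that comparison (0.01) was -0.017 in limma voom with total library sizes and -0.21 to 0.30 with each mouse left out (-0.01 and -0.19 without control mice 1 and 3, -0.05 and -0.21 without TAI mice 1 and 2). C3ar1 in TAI/IVIg against control (-0.39) was 0.10 with medians set equal and 0.027 with quantile normalization. Depth limited Cfi in all groups and Mbl2 in control, which rested on few reads, and 3 mice per group limited the rest.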
